A study of Mus musculus with 6 samples.

Results

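The genes described here make, sense and remove prostaglandin E2 (PGE2), and were measured by RNA sequencing in osteoblasts, the cells that build bone. They are 10 genes chosen by symbol from the 27179 gene IDs of the count table: the cyclooxygenases Ptgs1 and Ptgs2, the PGE synthases Ptges, Ptges2 and Ptges3, the PGE2 receptors Ptger1, Ptger2, Ptger3 and Ptger4, and the degrading enzyme Hpgd. All 10 symbols matched an ID. The set was proposed with the knockout and wildtype values of these genes in view, among them the higher Ptgs2, so their differences are given as a description and support nothing further.

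Both groups were C57Bl/6J pups aged 5 days. The 3 libraries labelled knockout came from mice with a conditional deletion of Cdc73 (also called Hrpt2); its product, parafibromin, belongs to the Paf1 complex, which travels with RNA polymerase II. The other 3 came from mice labelled wildtype. In both groups calvarial cells were released with collagenase and sorted on a GFP transgene controlled by Osteocalcin-Cre, a recombinase active in differentiated osteoblasts, so the groups share the sort and the marker. The title of the series ties the deletion to bone mass and bone turnover. Whether a library is 1 pup or a pool is not stated in the labels, so p-values reflect only the spread among these libraries, part of which may be technical.

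Cyclooxygenases turn arachidonic acid, freed from membranes by phospholipases A2, into the unstable prostaglandin H2. PGE synthases convert it to PGE2, which leaves the cell, acts on its receptors EP1 to EP4 (genes Ptger1 to Ptger4) and is inactivated by 15-hydroxyprostaglandin dehydrogenase, the product of Hpgd. EP2 and EP4 signal through cyclic AMP, EP1 through calcium, and EP3 mostly lowers cyclic AMP. In bone, PGE2 made by osteoblasts through the inducible Ptgs2 is known to stimulate both bone formation and, through osteoclasts, bone resorption.

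Ptgs2 and Hpgd were the most abundant of the 10 transcripts and had fold changes of opposite sign, so their promoters are shown. Each window runs from 250 bases before to 50 bases after the RefSeq start (RefSeq, GRCm38.p6, plus strand). Capitals mark matches, on either strand, to any of 8 motifs: TATAAA (the box bound by TBP), TGACGTCA (cAMP response element), TGACG (the core of that element), CACGTG (E-box), TTGCGCAA (C/EBP), TGTGGT (Runx), TGANTCA (AP-1) and the NF-kB motif.
Ptgs2, chr1:150099781-150100080: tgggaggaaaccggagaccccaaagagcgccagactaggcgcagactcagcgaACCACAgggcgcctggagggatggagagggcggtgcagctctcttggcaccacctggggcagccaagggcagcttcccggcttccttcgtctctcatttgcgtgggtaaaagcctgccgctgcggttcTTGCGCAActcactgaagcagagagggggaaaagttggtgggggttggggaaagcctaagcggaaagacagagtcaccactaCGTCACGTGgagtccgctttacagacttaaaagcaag
Hpgd, chr8:56294302-56294601: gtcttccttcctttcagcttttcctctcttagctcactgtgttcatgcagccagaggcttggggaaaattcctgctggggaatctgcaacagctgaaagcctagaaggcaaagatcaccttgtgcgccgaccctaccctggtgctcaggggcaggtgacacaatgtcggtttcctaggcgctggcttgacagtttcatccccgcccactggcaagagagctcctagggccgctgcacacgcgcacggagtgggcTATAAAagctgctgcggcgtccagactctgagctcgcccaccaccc

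The Ptgs2 window held a Runx match 197 bases before the start, on the minus strand, and a C/EBP match 69 bases before it. Past the start lay a TGACG match on the minus strand at base 14 that overlaps an E-box at base 17. Over all 32851 promoter windows of this length, 16.8% held TGTGGT, 0.183% TTGCGCAA, 20.8% TGACG and 7.15% CACGTG. The Hpgd window held TATAAA at base 5 after the start, which 13.6% of windows hold. The table has windows for 9 of the 10 genes, all but Ptger1. Among the other 7, the E-box was found in Ptges2 and TGACG in Ptges3, and the windows of Ptgs1, Ptges, Ptger2, Ptger3 and Ptger4 held none of the 8. A match is a description of letters in this window only.

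Library totals ran from 13591925 to 20993962 counts. After random thinning to the smallest total, 17400, 14608 and 15647 IDs had a count in wildtype 1, 2 and 3. The knockout libraries had 16932 to 17786. Fewer genes were thus detected in wildtype 2 and 3 at equal depth, which limits comparisons of genes with low counts. Over 13505 genes that passed the filter on low counts, the quasi-likelihood test of edgeR, adjusted by Benjamini and Hochberg, called 0 genes (0%) between the groups. A total of 1974 genes (14.6%) had an unadjusted p under 0.05. DESeq2 called 289 (1.46%, with higher calls at 1.31%), and edgeR without the filter called 24 (0.121%, all higher). Here and below, these shares are over 19770 and 19771 IDs, including IDs that did not pass the filter. DESeq2 gave some of them no adjusted p, so they could not be called. Such shares are therefore not like for like with lists of expressed genes. The control libraries were unlike one another: across genes, log2 CPM correlated at 0.925 between wildtype 2 and 3, and at 0.94 and 0.945 between wildtype 1 and these. Wildtype 1 correlated with the knockout libraries at 0.973 to 0.983, and wildtype 2 and 3 at 0.906 to 0.939. By the chi-square of counts per degree of freedom, however, wildtype 1 was nearer to wildtype 2 (30.3) than to any knockout library (52.8 to 72.5). From wildtype 3 it stood at 54.1, farther than from knockout 1 (52.8). Without wildtype 1 edgeR called 409 genes (2.96%), with higher calls at 2.13%. Cdc73 itself measured 13.98 to 14.73 CPM in the knockout libraries and 12.80 to 21.73 CPM in wildtype, with overlapping groups. The count covers the whole gene and the labels do not name the deleted exons, so Cdc73 does not check the labels, and directions refer to the libraries as labelled. The osteoblast markers Col1a1, Col1a2, Runx2, Sp7, Alpl, Ibsp, Bglap, Spp1, Dlx5, Ifitm5, Phex and Dmp1 were detected in every library, and their summed level was 237300 to 351000 CPM in the knockout libraries and 281400 to 307000 CPM in wildtype. Col1a1 and Col1a2 made up most of this sum. Of the 12 markers 9 had negative fold changes (median -0.18) and 0 passed the test. Sp7 and Dlx5 lay below wildtype in every knockout library, as did 9.81% of all genes tested. Dmp1 lay above in every one, as did 10.6%.

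Levels are given as CPM, read counts scaled for library depth and TMM factors, and per-length levels as CPM per kilobase of exon. In wildtype the highest per-length level was that of Hpgd at 52.6 ± 15.2 CPM per kb (SD, n = 3), followed by Ptgs2 at 11.6 ± 6.76 and Ptges at 3.60 ± 0.287. Hpgd lay above Ptgs2 in every wildtype library, whereas Ptgs2 and Ptges overlapped through 1 low Ptgs2 library. In the knockout libraries Ptgs2 (38.9 ± 5.39 CPM per kb) and Hpgd (38.1 ± 7.42) were at the same level within their spread. Averaged over the 6 libraries, Hpgd exceeded 94.9% and Ptgs2 90.2% of the 12780 tested genes with a known exon length. Ptgs1, at 21.6%, and Ptger4, at 19%, lay in the lower part of that order. The other synthases and Ptger1 lay between, at 28.4% to 47.1%, and Ptger3 and Ptger2 were at the bottom of the set in both groups. The place of Ptges3 is uncertain, because it rests on its own reads and a pseudogene took more reads than Ptges3 (values below). Summed with its copies, Ptges3 averaged 21.8 CPM in wildtype, against 13.1 CPM for Ptges, which has longer exons.

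**Figure D1:**
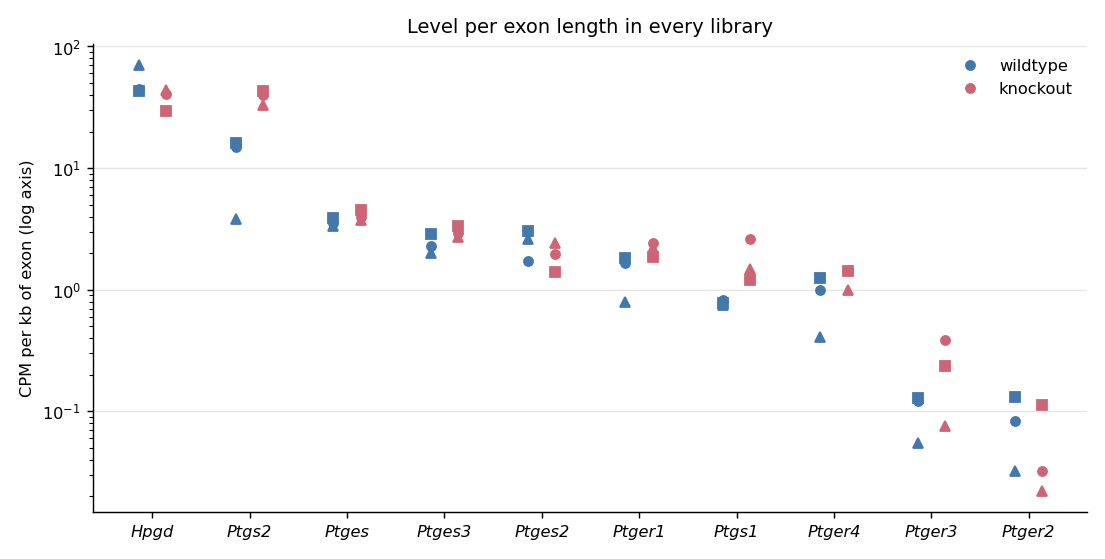
CPM per kilobase of exon (log axis) for the 10 genes, ordered by their mean over the 6 libraries. Circles, squares and triangles are replicates 1, 2 and 3, in blue for wildtype and red for knockout. Hpgd and Ptgs2 stand above the other 8 genes, except that Ptgs2 in wildtype 3 (3.85) falls to the level of Ptges. Ptges3 is drawn from its own reads alone, without those of its pseudogene copies, so its place is uncertain.

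Ptgs2 (gene ID 19225, chromosome 1, 150100031 to 150108234 in mm10), the inducible cyclooxygenase, showed the largest difference among the 8 of the 10 genes that passed the filter. It measured 179, 193 and 147 CPM in knockout 1, 2 and 3 and 65.9, 72.1 and 17.1 CPM in wildtype 1, 2 and 3. All knockout libraries lay above all wildtype libraries, and wildtype 3 lay far below the other controls. The knockout libraries differed among themselves by 1.32-fold and the wildtype libraries by 4.2-fold. Knockout libraries averaged 173 ± 24.0 CPM and wildtype 51.7 ± 30.1 CPM (SD, n = 3 each), and the fitted log2 fold change was 1.74 ± 0.43 (SE). Leaving out wildtype 1 gave 1.94, leaving out wildtype 3 gave 1.32, and against wildtype 1 alone the value was 1.38.

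Ptgs1 (gene ID 19224, chromosome 2, 36216742 to 36258593), the cyclooxygenase found in most tissues at a steady level, was far less abundant. It measured 7.56, 3.47 and 4.28 CPM in the knockout libraries and 2.36, 2.23 and 2.15 CPM in wildtype. The groups did not overlap, and the highest value was that of knockout 1, which was also highest in neutrophil, macrophage, chondrocyte and endothelial markers (values below). The log2 fold change was 1.19 ± 0.36, and 0.77 without knockout 1. Per exon length, Ptgs2 exceeded Ptgs1 by 15.3, 35.8 and 22.1 times in knockout 1, 2 and 3 and by 18.0, 20.8 and 5.13 times in wildtype 1, 2 and 3. This ratio, which does not depend on library scaling, overlapped between the groups. It was 5.13 or more in every library, so Ptgs2 was the main cyclooxygenase transcript in all 6 libraries.

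Of the 8 genes that passed the filter, Ptgs1, Ptgs2 and Ptger1 lay above wildtype in every knockout library, and none lay below in every one. Among all genes tested 10.6% lay above and 9.81% below without overlap. Since the genes were proposed from this contrast, nothing is read from that count. No member passed the threshold, with adjusted p over all genes from 0.273 (Ptgs2) to 0.589 (Ptges) in edgeR's quasi-likelihood test.

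**Figure D2:**
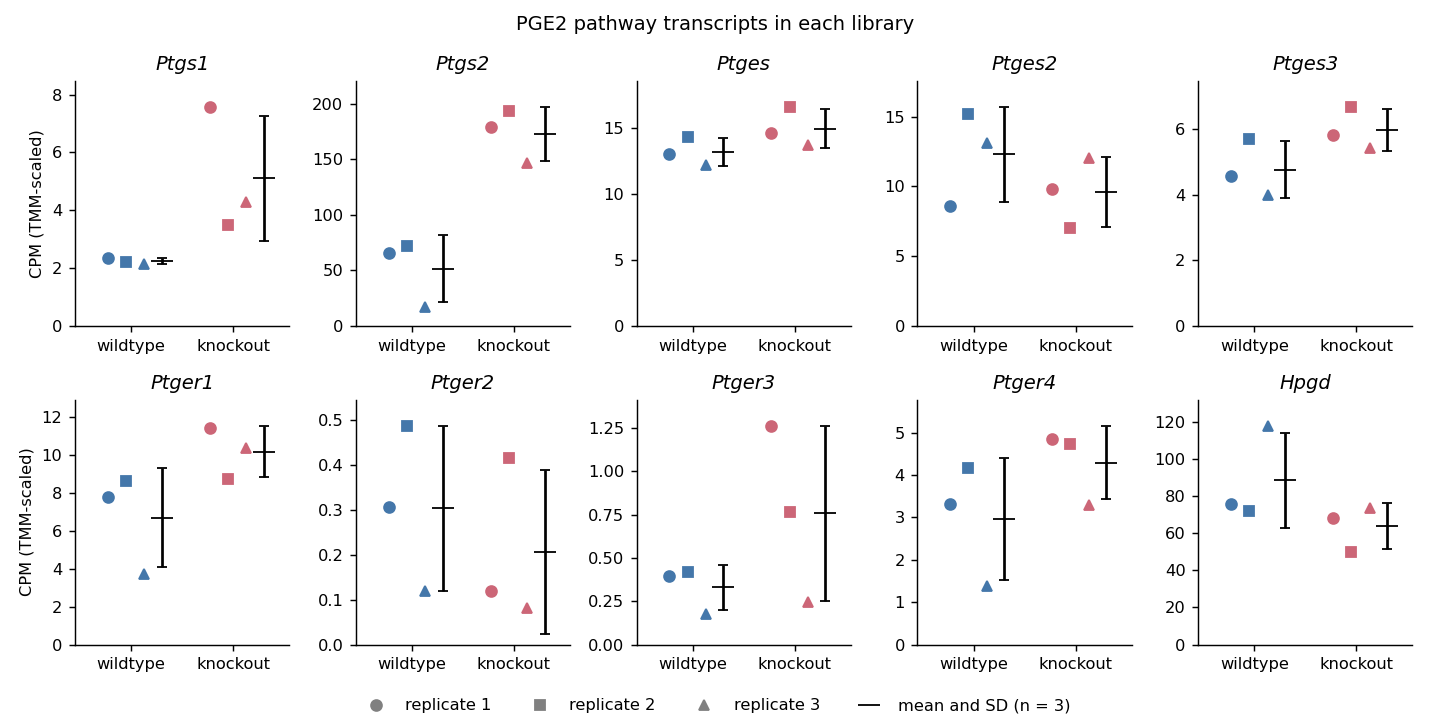
TMM-scaled CPM of each gene in every library (circles, squares and triangles are replicates 1, 2 and 3), with the mean and SD of each group (n = 3). Ptgs2 spans 147 to 193 CPM in knockout and 17.1 to 72.1 CPM in wildtype, whereas the 3 synthases overlap between the groups.

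The PGE synthases showed no separation between the groups. Ptges (gene ID 64292, chromosome 2), which encodes the microsomal synthase that is often induced together with Ptgs2, measured 14.6, 16.5 and 13.7 CPM in the knockout libraries and 13.0, 14.3 and 12.2 CPM in wildtype. These values varied by about 1.2-fold within each group, the narrowest spread over both groups among the members, and the log2 fold change was 0.18 ± 0.17. Per exon length, Ptgs2 exceeded Ptges by 10.1, 9.58 and 8.79 times in the knockout libraries and by 4.16, 4.14 and 1.15 times in wildtype, without overlap. Wildtype 3 was again the lowest. Ptgs2 alone already separated the groups, so the separation of this ratio is no further result.

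Ptges2 (gene ID 96979, chromosome 2), a second membrane-associated synthase, measured 9.78, 7.02 and 12.01 CPM in the knockout libraries and 8.57, 15.2 and 13.1 CPM in wildtype. The log2 fold change was -0.35 ± 0.27, and its sign depended on the controls: against wildtype 1 alone it was 0.15. Ptges3 (gene ID 56351, chromosome 10), a cytosolic synthase better known as the Hsp90 co-chaperone p23, measured 5.82, 6.67 and 5.43 CPM against 4.59, 5.70 and 4.0 CPM. Its level is uncertain, because the processed pseudogene Ptges3-ps is identical to its transcript over 480 aligned bases and took 2.91 to 3.94 reads for each Ptges3 read. Summed with Ptges3-ps and a further copy, Gm11893 (94.3% identical over 495 bases), the level was 24.9 ± 3.57 CPM in knockout and 21.8 ± 2.97 CPM in wildtype. The 2 groups overlapped in this sum too.

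The receptors were expressed at low levels, and Ptger1 and Ptger4 carried most of their reads. Ptger4 (gene ID 19219, chromosome 15), the EP4 receptor through which PGE2 is known to raise cyclic AMP in osteoblasts, measured 4.86, 4.73 and 3.29 CPM in the knockout libraries and 3.32, 4.17 and 1.37 CPM in wildtype. The groups overlapped, wildtype 3 was the lowest, and the log2 fold change of 0.54 ± 0.41 was 0.19 without that library. Ptger1 (gene ID 19216, chromosome 8), the EP1 receptor, measured 11.5, 8.76 and 10.4 CPM against 7.78, 8.62 and 3.70 CPM. The groups came close without overlapping, with knockout 2 just above wildtype 2, and the log2 fold change was 0.61 ± 0.30 (0.31 without wildtype 3).

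The Ptger1 values are uncertain, because the labels do not state whether counting used strand, and without strand reads from either strand at a locus cannot be told apart.

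Ptger2 and Ptger3 did not pass the filter on low counts. Ptger2 (gene ID 19217, chromosome 14), the EP2 receptor, had 2, 6 and 1 counts in the knockout libraries and 7, 7 and 2 in wildtype. Ptger3 (gene ID 19218, chromosome 3), the EP3 receptor, had 21, 11 and 3 counts against 9, 6 and 3. Both groups overlapped for each gene, and a difference between the groups was not detectable at this depth.

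Hpgd (gene ID 15446, chromosome 8, 56294552 to 56321046), which starts the inactivation of PGE2, had a lower mean in the knockout libraries. It measured 68.4, 50.04 and 73.9 CPM in knockout 1, 2 and 3 and 75.7, 71.9 and 118 CPM in wildtype 1, 2 and 3. Knockout 3 lay above wildtype 2, so the groups overlapped, and wildtype 3, the lowest for Ptgs2, was the highest for Hpgd. The log2 fold change was -0.47 ± 0.23, between -0.68 with library size alone and -0.21 without wildtype 3. Per exon length, Ptgs2 stood at 0.99, 1.46 and 0.75 of Hpgd in the knockout libraries and at 0.329, 0.379 and 0.0549 in wildtype. The lowest knockout ratio was thus above the highest wildtype ratio, and the mean log2 ratios were 0.039 ± 0.48 and -2.40 ± 1.55 (SD, n = 3 each). Ptgs2 alone already separated the groups, so this separation is no further result.

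**Figure D3:**
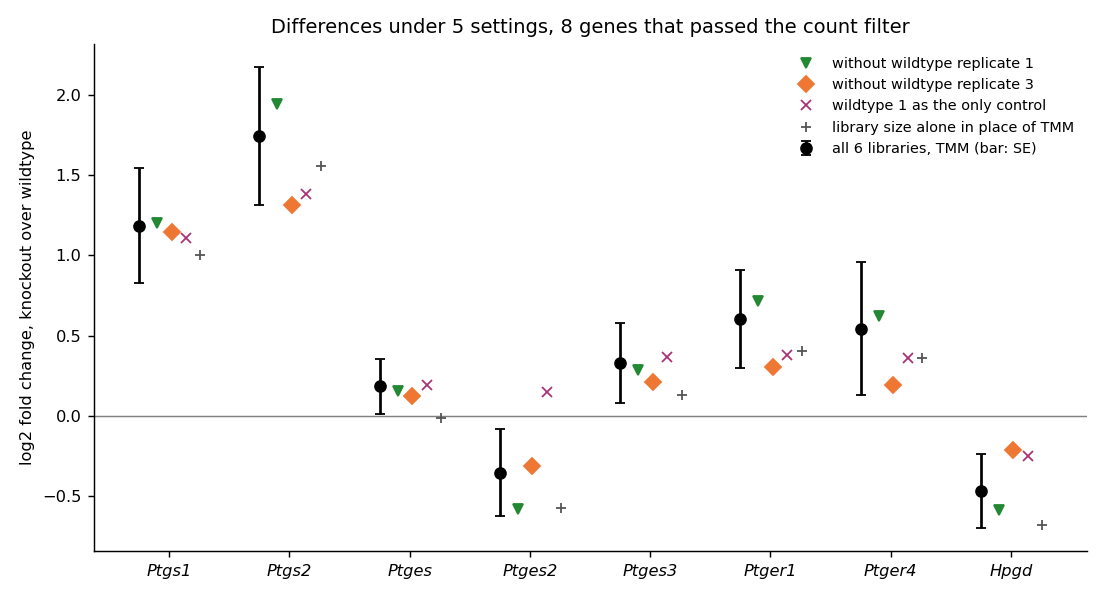
Log2 fold change (knockout over wildtype) of the 8 genes that passed the filter, with the standard error for the fit to all 6 libraries and the value under 4 other settings. Ptgs2 stays between 1.32 and 1.94 here and Ptgs1 between 1.00 and 1.21, whereas Ptges2 and, with library size alone, Ptges cross 0.

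The genes whose profile over the 6 libraries was nearest to that of Ptgs2 were Hbegf, Arc, Gprc5a, C5ar1, Dusp2 and Nfkbid, among 9418 named genes averaging 5 CPM or more. The measure was the root mean square difference between log2 CPM values after subtracting each gene's mean, and it ran from 0.246 (Hbegf) to 0.298 (Dusp2 and Nfkbid). Hbegf encodes a heparin-binding growth factor of the EGF family and measured 38.9, 26.1 and 20.2 CPM in the knockout libraries and 10.1, 12.1 and 2.21 CPM in wildtype. Arc, an activity-regulated cytoskeletal gene, measured 34.6, 28.5 and 19.3 CPM against 14.0, 10.2 and 2.93 CPM. Dusp2 encodes a phosphatase of MAP kinases, C5ar1 the receptor of complement C5a, Nfkbid a nuclear IkB protein and Gprc5a an orphan receptor. All 6 were lowest in wildtype 3, as Ptgs2 was. Since they were picked for their nearness to Ptgs2, this and their higher knockout values follow from the choice. Of the other members Ptger4 (0.714) and Ptger1 (0.742) were nearest to Ptgs2 by the same measure, and Hpgd (1.53) was farthest.

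**Figure D4:**
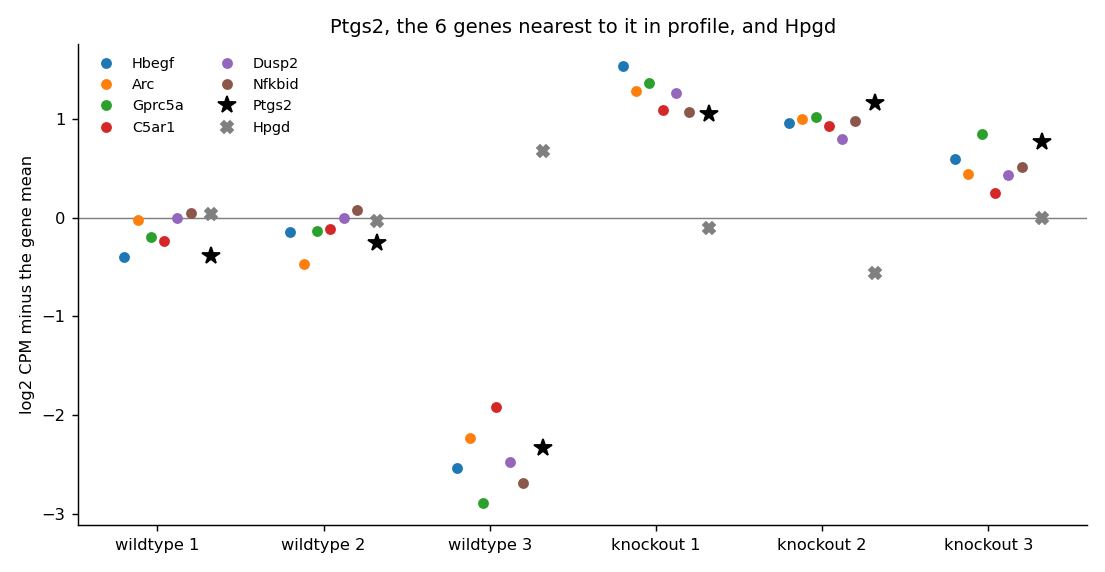
Log2 CPM minus the mean of each gene in the 6 libraries for Ptgs2 (star), the 6 genes nearest to it (dots) and Hpgd (cross). In wildtype 3 the 6 genes, picked for their nearness to Ptgs2, lie between -1.91 and -2.89, while Hpgd is at its highest there.

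Genes upstream of the cyclooxygenases showed little difference. Of 19 phospholipases A2, 8 passed the filter, 0 passed the test, 5 had positive and 3 negative fold changes, and the median was 0.045, against -0.0058 over all genes tested, of which 49.3% were positive. The sign of this median depended on the setting, since it was -0.16 with library size alone and -0.064 without wildtype 1. Pla2g7, which hydrolyses platelet-activating factor, measured 6.76 ± 2.85 CPM in knockout and 2.76 ± 1.17 CPM in wildtype without overlap. Pla2g4b (2.38 ± 1.16 against 1.18 ± 0.635 CPM), the secreted Pla2g5 (7.66 ± 2.13 against 12.9 ± 7.79 CPM) and Plaat3 (10.7 ± 0.856 against 13.3 ± 2.55 CPM, without overlap) were the others of smallest p. Pla2g4a, the cytosolic enzyme that frees arachidonic acid, named here for its role after its values were seen, measured 18.4 ± 2.34 against 17.4 ± 2.37 CPM.

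Enzymes that make the other prostanoids overlapped between the groups. All 7 other synthases passed the filter and 0 passed the test, with 3 positive, 4 negative and a median of -0.33. Hpgds, the prostaglandin D synthase of blood cells including mast cells, measured 3.13 ± 1.31 against 1.55 ± 0.175 CPM. Mast cell markers were summed at 17.44 to 58.44 CPM in the knockout libraries and 6.69 to 17.49 CPM in wildtype, with 6 of 7 higher in the knockout mean and with Cpa3, Ms4a2 and Fcer1a at 0 in at least 1 library. Their part in the Hpgds value was not tested. Ptgds (2.15 ± 2.14 against 0.562 ± 0.646 CPM), Prxl2b (5.08 ± 0.384 against 6.87 ± 1.29 CPM) and Akr1b3 (7.72 ± 0.626 against 10.5 ± 3.70 CPM) completed the named members. Ptgis, the prostacyclin synthase, singled out after its values were seen as the most abundant of the list, measured 271 ± 74.1 against 355 ± 93.5 CPM.

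Of 6 receptor genes of the other prostanoids 4 passed the filter, 2 positive and 2 negative, with a median of -0.055 and 0 past the test. The PGF2alpha receptor Ptgfr (3.69 ± 1.18 against 4.37 ± 0.946 CPM), the prostacyclin receptor Ptgir (1.06 ± 0.588 against 1.40 ± 0.788 CPM), the thromboxane receptor Tbxa2r (2.88 ± 0.518 against 2.40 ± 1.09 CPM) and Ptgfrn, a negative regulator of Ptgfr (238 ± 27.5 against 215 ± 58.7 CPM), overlapped between the groups. Among 11 lipoxygenase and leukotriene genes only Alox5ap (2.21 ± 1.03 against 1.58 ± 0.595 CPM) and Lta4h (39.9 ± 1.63 against 48.9 ± 8.34 CPM) passed the filter, and neither passed the test.

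Zadh2, Ptgr1 and Ptgr2, which reduce prostaglandins after Hpgd has acted, lay on the same side as Hpgd. In the list of transport and further reduction 7 of 7 passed the filter, 0 passed the test, 5 were negative and the median was -0.37 (-0.57 with library size alone). This list also holds the transporters Slco2a1 and Abcc4, both positive, and the carbonyl reductases Cbr1 and Cbr3. Its median is therefore not that of the enzymes after Hpgd alone. Zadh2, a 15-oxo-prostaglandin reductase, measured 13.1, 12.3 and 14.7 CPM in the knockout libraries and 17.2, 19.4 and 16.9 CPM in wildtype. Ptgr1 measured 6.78, 5.56 and 6.01 against 7.78, 9.39 and 10.8 CPM, and Ptgr2 13.1, 13.0 and 13.5 against 15.9, 18.1 and 17.1 CPM. These 3 reductases lay below wildtype in every knockout library, as did 9.81% of all genes tested. The carbonyl reductase Cbr3 (7.56 ± 1.496 against 10.4 ± 2.42 CPM) overlapped. Against wildtype 1 alone the median of the list was -0.045.

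**Figure D5:**
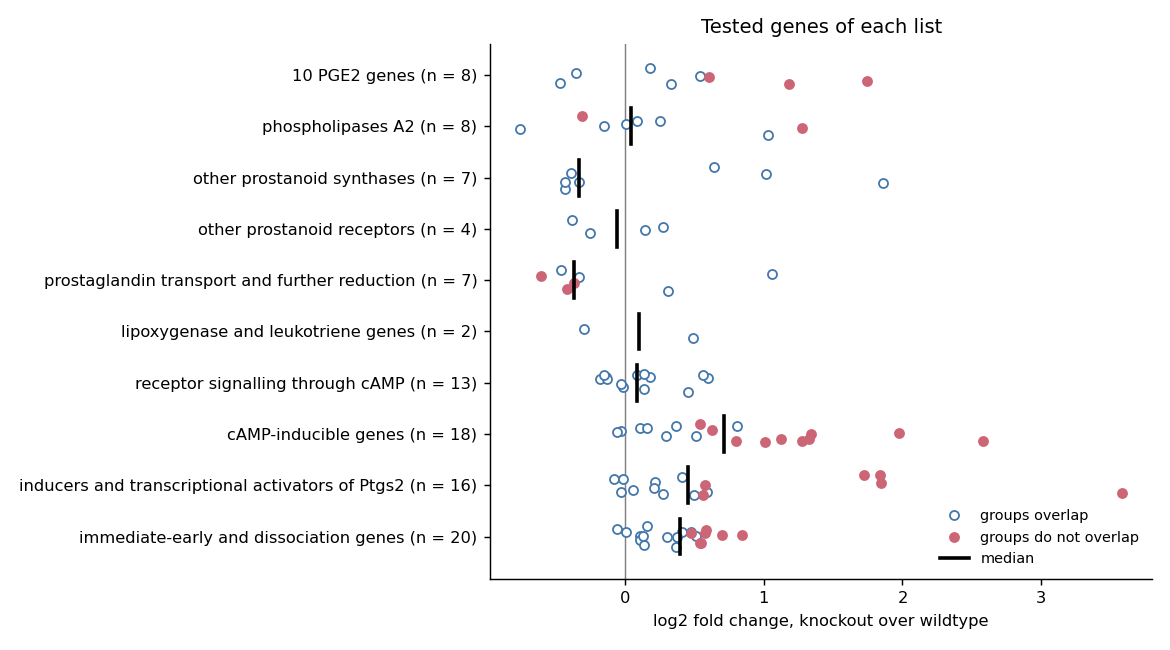
Log2 fold change (knockout over wildtype) of every tested gene in the 10 PGE2 genes and in 9 further lists, with filled points where the groups do not overlap and a bar at the median of each further list. The medians run from -0.37 for transport and further reduction to 0.72 for cAMP-inducible genes.

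The machinery that carries the EP2 and EP4 signal did not separate the groups. All 13 genes of receptor signalling through cyclic AMP passed the filter, 0 passed the test, 0 were without overlap, and the median was 0.088 (-0.12 with library size alone). The adenylyl cyclases Adcy4 (7.82 ± 2.68 against 5.17 ± 0.222 CPM), Adcy7 (15.8 ± 4.08 against 10.7 ± 4.16 CPM) and Adcy9 (12.5 ± 2.03 against 14.2 ± 2.05 CPM) and the protein kinase A catalytic subunit Prkaca (24.4 ± 0.678 against 26.7 ± 2.00 CPM) had the smallest p.

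Transcripts that cyclic AMP is known to induce had mostly higher values in the knockout libraries. Of 19 genes 18 passed the filter, 16 were positive and 2 negative (14 and 4 with library size alone), 0 passed the test, and the median was 0.72. Leaving out wildtype 1 gave 0.97, leaving out wildtype 3 gave 0.62, and against wildtype 1 alone the median was 0.43, with 14 of 19 positive. For 10 of the 18 the groups did not overlap, with knockout above, as for 10.6% of all genes tested. Among the 10, Il11 (33, 22 and 11 counts against 10, 0 and 4) passed the filter only through the knockout libraries. Its place in that count therefore follows in part from the filter. Rgs2, a regulator of G protein signalling, measured 38.5, 37.9 and 20.6 CPM against 15.3, 12.7 and 10.6 CPM. The phosphodiesterase Pde4b, which degrades cyclic AMP, measured 85.1, 54.2 and 32.7 CPM against 28.9, 9.53 and 4.90 CPM. The kinase Sik1 (56.7 ± 13.0 against 25.9 ± 12.9 CPM) and the transcriptional co-regulator Cited2 (53.9 ± 7.26 against 30.8 ± 7.78 CPM) were also without overlap. Without wildtype 1, edgeR called 5 genes of this list, all higher, where 2.13% of all genes were called higher. DESeq2 called 3 (1.31% of all genes) and edgeR without the filter 1 (0.121%).

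The list of inducers and activators of Ptgs2 also held opposing genes, such as the antagonist Il1rn and the inhibitor Nfkbia. Its tallies are therefore not of inducers alone. All 16 genes passed the filter. None passed the test, 13 were positive and 3 negative, against 49.3% positive over all genes, and 6 lay above wildtype in every knockout library, against 10.6% of all genes. Called higher were 1 gene without wildtype 1, 3 by DESeq2 and 1 without the filter, where 2.13%, 1.31% and 0.121% of all genes were. Their median was 0.46, and leaving out wildtype 3 gave 0.23, whereas using wildtype 1 alone gave 0.21 and library size alone 0.26. Il1b, a cytokine that induces Ptgs2, measured 20.9, 17.4 and 8.23 CPM in the knockout libraries and 4.37, 5.98 and 2.75 CPM in wildtype. Its relative Il1a measured 5.82, 2.64 and 1.40 against 0.656, 0.0695 and 0 CPM, and the antagonist Il1rn 15.6, 7.44 and 5.18 against 2.45, 4.45 and 1.07 CPM. All 3 were highest in knockout 1. Il1a, with 15, 1 and 0 counts in wildtype, passed the filter through the knockout libraries. Its place among the 6 therefore follows in part from the filter. Nfkbia, the NF-kB inhibitor that NF-kB itself induces, measured 224 ± 24.3 against 152 ± 34.3 CPM.

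Markers of several other cell types, some of which are known to make Il1b or Ptgs2, also had higher values in the knockout libraries. The 16 macrophage and monocyte markers summed to 427.5, 315.9 and 181.6 CPM in knockout 1, 2 and 3 and to 156.1, 155.6 and 110.9 CPM in wildtype 1, 2 and 3, with 16 of 16 higher in the knockout mean. The 10 neutrophil markers summed to 58.57 to 197.3 against 20.59 to 57.62 CPM (10 of 10 higher). The 12 endothelial markers summed to 146.4 to 255.8 against 54.99 to 147.8 CPM (12 of 12), and the 13 chondrocyte markers to 11900 to 26870 against 3563 to 10170 CPM (13 of 13). The neutrophil genes Elane and Cxcr2 were at 0 in at least 1 library, no marker was at 0 in all 6, and their most abundant members were Csf1r, S100a9, Cdh5 and Col2a1. Without wildtype 1, edgeR called higher 11 of 13 chondrocyte, 8 of 12 endothelial and 0 macrophage or neutrophil markers, where 2.13% of all genes were. DESeq2 called higher 6 of 16 macrophage, 6 of 12 endothelial, 3 of 10 neutrophil and 1 of 13 chondrocyte markers (1.31% of all genes). Osteoclast markers summed to 528.6 to 641.6 against 414 to 599.4 CPM (7 of 8 higher in the knockout mean). Fibroblast and periosteum markers summed to 2130 to 2644 against 1801 to 2781 CPM (9 of 9) and erythroid markers to 32.82 to 255.5 against 9.459 to 75.8 CPM (6 of 6). The groups overlapped in each of these sums. Pericyte and smooth muscle markers summed to 137.6 to 195.6 against 186.3 to 201.8 CPM (3 of 8 higher) and skeletal muscle markers to 5.92 to 28.92 against 5.49 to 41.03 CPM (2 of 8 higher). The part of these cells in the values of Ptgs2, Ptgs1, Il1b or the cyclic AMP list was not tested. In bulk RNA, fewer cells of a type and less RNA per cell cannot be told apart.

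Ptgs2 is also an immediate-early gene, a class that responds to cell handling. Of 20 immediate-early and dissociation genes, 4 of them shared with the cyclic AMP list and 2 with the list of inducers, 19 were positive (13 with library size alone) against 49.3% of all genes, and 0 passed the test. Knockout lay above without overlap for 7, against 10.6% of all genes. Their median was 0.39. Leaving out wildtype 3 gave 0.17, using wildtype 1 alone gave 0.079, library size alone gave 0.21, and without wildtype 1 the median was 0.65. Without wildtype 1, and by DESeq2, 1 gene of the list was called higher, where 2.13% and 1.31% of all genes were. The summed level of the list was 8449, 9416 and 9684 CPM in knockout 1, 2 and 3 and 9157, 7878 and 5823 CPM in wildtype 1, 2 and 3. The groups overlapped in this sum, with knockout 1 below wildtype 1. Btg2, an antiproliferative gene, measured 220 ± 29.3 against 122 ± 36.8 CPM, Ier3 249 ± 8.63 against 153 ± 61.9 CPM, and the transcription factors Klf4 316 ± 68.6 against 216 ± 49.9 CPM and Junb 770.2 ± 53.9 against 530.1 ± 143.6 CPM. Fos, the best-known gene of the class, named after its values were seen, measured 1647 ± 401 against 1714 ± 254 CPM. The part of cell handling in the Ptgs2 values was not tested.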

How the data were processed

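The deposited values were raw read counts per gene, with no normalization, in 1 table with 27179 Entrez gene IDs as rows and the 6 libraries as columns. The submitters' processing notes list CASAVA 1.7, Subread, featureCounts and build mm10. Column names gave each library, and 0 columns were unmatched. Names came from RefSeq (25275 IDs) and GENCODE M21 (18 more), and 1886 unnamed IDs stayed in totals and tests. Exon lengths were unions of GENCODE exons, for 21159 of 21572 genes over RefSeq-paired transcripts.

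The comparison used edgeR 4.0.16 in R 4.3.3 (filterByExpr, TMM, two-sided quasi-likelihood test, no covariates, Benjamini-Hochberg over all 13505 genes, threshold 0.05) and was tested on simulated data. The standard error is the log2 fold change divided by the root of the F statistic. Near-identical copies were sought with blastn 2.17.0 at 92% identity or more over more than 150 bases. The alternatives were 3 other scalings, 2 other filters, DESeq2 1.42.0, limma voom (3.58.1), the replicate number as a block, wildtype 1 as the only control, and leaving out each library.

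Named genes were all 10 members, up to 4 of smallest p in each list, Cdc73 and the 6 nearest to Ptgs2 in profile. The members and lists were chosen with earlier results of these data known. Of 237 list entries all matched an ID, 2 by synonym. A further result that bears on Ptger1 is not reported here.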

Additional observations from a re-analysis of the deposited data

How the results depend on the processing

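The count of genes called over the whole table, 0 with edgeR and TMM, was 24 without a filter on low counts, 289 with DESeq2, and 0 to 409 when each library was left out in turn (409 without wildtype 1). With the replicate number as a block it was 236 (1.75%), 226 of them higher, and Ptgs2 was then called (log2 fold change 1.96, adjusted p = 0.0131 in edgeR). Also called higher were 4 of 18 tested cAMP-inducible genes, 4 of 16 genes on the inducer list and 1 of 20 immediate-early genes. So were 12 of 13 chondrocyte, 8 of 12 endothelial, 5 of 16 macrophage and monocyte and 0 of 12 osteoblast markers. The labels state no pairing by replicate number. The deviations of same-numbered libraries correlated at 0.12, -0.074 and 0.22, and those of other-numbered libraries at -0.35 to 0.35. So few libraries cannot decide whether the samples are paired. The other scalings, the stricter filter, voom and wildtype 1 as the only control gave 0 calls. Over the 15 alternatives Ptgs2 kept a log2 fold change of 1.32 to 2.04 (adjusted p 0.0131 to 0.947) and Ptgs1 one of 0.77 to 1.40 (adjusted p 0.109 to 0.947). Hpgd ran from -0.68 to -0.21, Ptger1 from 0.31 to 0.80, Ptger4 from 0.19 to 0.84 and Ptges3 from 0.13 to 0.46. Ptges changed sign with library size alone (-0.011), a setting under which the all-gene median was -0.21, and Ptges2 with wildtype 1 as the only control (0.15). The cause was not tested. Without a filter Ptgs2 had an adjusted p of 0.0529 in edgeR. Depth limits Ptger2 and Ptger3, with 1 to 21 counts a library.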
